A study of Arabidopsis thaliana with 36 samples.

Results

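Xyloglucan endotransglucosylase/hydrolases (XTHs) are secreted enzymes of the plant cell wall, and the family in Arabidopsis thaliana is named XTH1 to XTH33. The 33 loci were taken by their locus identifiers, without a rule on expression values, although earlier results of these data were known. All 33 were among the 33341 loci counted in an RNA-seq series of 36 polyA libraries on hypocotyl grafting. Each of 12 groups, given by 4 genotypes and 3 tissues, had 3 libraries that the series describes as biological replicates. Seedlings were 7 days old, and tissue was taken 24 h after grafting, which joined the cut parts of different seedlings. The scion group was the 0.5 mm of hypocotyl above the graft junction, the rootstock group the 0.5 mm below it, and the intact group a 1 mm piece of uncut hypocotyl. One cotyledon was cut off in every group, the intact one included. The genotypes were the dof quadruple mutant, the erf114,115 double mutant, the anac071,096 double mutant and the reference accession Col-0; each mutant was compared with Col-0 of the same tissue, and each scion or rootstock group with the intact group of its genotype. The labels give no alleles and do not list the 4 lesions of the dof quadruple line.

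Xyloglucan is the main hemicellulose of the primary wall in dicots, a glucan backbone with xylose side chains that coats and ties cellulose microfibrils. XTHs cut the backbone and join the new end to another xyloglucan chain, and a few members transfer it to water instead, so the family can loosen, rebuild or strengthen a wall as cells grow. Healing of a graft or a cut stem involves adhesion of walls, divisions next to the cut and new vascular strands, and in incised Arabidopsis inflorescence stems XTH19 and XTH20 have been described as targets of the transcription factor ANAC071.

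Total counts per library ran from 19.5 M to 30.5 M, with a median of 23.8 M. In the mutants, DOF6 had no count in dof quadruple scions, against 178 counts in Col-0 scions, a level at least 59.1-fold lower, and ERF115 was lower in erf114,115 scions than in Col-0 scions by log2 -6.15 ± 0.37 (SE; edgeR's quasi-likelihood test, Benjamini-Hochberg adjusted p = 4.85e-12). ANAC096 was lower in anac071,096 scions by -2.39 ± 0.29 (adjusted p = 1.41e-05). HCA2, another DOF gene, was higher in dof quadruple scions by log2 1.81 ± 0.19 (adjusted p = 1.49e-07). Col-0 rootstock library 1 held 2514 loci counted in no other library, against at most 34 in any other. In Col-0, summed photosynthesis markers (3 genes) averaged 6232 CPM (counts scaled to library size) in scions and 26749 CPM in rootstocks, against 35748 CPM in intact hypocotyls, and summed xylem markers (3 genes) averaged 114 CPM in scions and 20.3 CPM in rootstocks, against 124 CPM in intact hypocotyls. Root hair markers (4 genes) summed to at most 0.400 CPM in any library, and shoot meristem markers (STM, WUS and CLV3) averaged 6.41 CPM in Col-0 scions and 0.157 CPM in Col-0 rootstocks, against 3.16 CPM in Col-0 intact hypocotyls, with WUS and CLV3 at 0 in scions and intact hypocotyls. Phloem markers (2 genes) averaged 74.3 CPM in scions and 76.01 CPM in rootstocks, against 187 CPM in intact hypocotyls, and epidermis markers (3 genes) 337 CPM in scions and 300.1 CPM in rootstocks, against 534 CPM in intact hypocotyls. The part of these shifts in the results below was not tested, and in bulk pieces fewer cells of a type and less RNA per cell cannot be told apart.

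The members closest to each other in sequence were also those whose counts are hardest to assign, so the coding windows of the group around XTH19 are shown first. Each window is 60 coding bases around the conserved catalytic motif that gives the family its activity, found by translating the RefSeq coding sequence of TAIR10.1, and capitals mark bases that differ from XTH19. XTH24, from the same chromosome, is added for contrast.
XTH17: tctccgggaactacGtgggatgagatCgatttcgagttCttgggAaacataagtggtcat
XTH18: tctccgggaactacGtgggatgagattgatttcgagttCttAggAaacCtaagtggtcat
XTH19: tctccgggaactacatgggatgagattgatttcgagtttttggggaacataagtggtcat
XTH20: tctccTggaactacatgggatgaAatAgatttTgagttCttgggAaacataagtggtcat
XTH24: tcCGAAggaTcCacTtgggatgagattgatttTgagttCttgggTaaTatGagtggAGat
In this window XTH17 differed from XTH19 at 4 bases, XTH18 at 5, XTH20 at 6 and XTH24 at 14. Over whole coding sequences XTH17 and XTH18 were 92.2% identical, XTH18 and XTH19 89.2%, and XTH19 and XTH20 84.3%. In spliced transcripts, untranslated parts included, the longest stretch shared letter for letter by any pair of the family was 68 bases, in XTH18 and XTH19. Counts of XTH17, XTH18, XTH19 and XTH20 are therefore uncertain to the extent that reads were shared between them. The motif was searched as a fixed pattern of residues: D, E, then I, L, M or V, then D, any, E, any, L and G. It was matched in 31 of the 33 coding sequences, not in XTH9 and XTH11. A site with another residue at a fixed position would be missed, so XTH9 and XTH11 are not shown to lack it. XTH31 and XTH32 belong to the branch of the family known for hydrolysis of xyloglucan, and their windows, with XTH31 marked against XTH19 and XTH32 against XTH31, were as follows.
XTH31: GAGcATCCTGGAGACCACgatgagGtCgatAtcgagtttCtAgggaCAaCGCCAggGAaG
XTH32: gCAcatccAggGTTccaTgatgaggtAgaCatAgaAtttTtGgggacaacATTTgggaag
XTH31 differed from XTH19 at 32 of the 60 bases, and XTH32 from XTH31 at 17.

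XTH24, XTH18 and XTH19 are next to one another on the minus strand of chromosome 4, at 14819192-14820595, 14825757-14827211 and 14828712-14830224, and XTH20 is on the plus strand of chromosome 5, at 19481897-19483527 (TAIR10.1). As all 4 moved after grafting, and DOF proteins are known to bind the core AAAG and ERF proteins the GCC box GCCGCC, the 250 bases before the annotated start were searched for both on both strands; matches of the 2 motifs can share the base where they meet. Capitals mark AAAG, or CTTT where it lies on the other strand, in the regions of XTH19 (chr4:14830225-14830474, minus strand) and XTH20 (chr5:19481647-19481896, plus strand).
XTH19: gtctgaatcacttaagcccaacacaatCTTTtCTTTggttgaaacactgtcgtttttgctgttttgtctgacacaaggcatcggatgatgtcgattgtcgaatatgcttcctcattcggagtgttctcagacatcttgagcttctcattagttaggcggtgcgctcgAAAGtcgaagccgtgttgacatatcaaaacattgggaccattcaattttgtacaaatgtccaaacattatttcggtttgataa
XTH20: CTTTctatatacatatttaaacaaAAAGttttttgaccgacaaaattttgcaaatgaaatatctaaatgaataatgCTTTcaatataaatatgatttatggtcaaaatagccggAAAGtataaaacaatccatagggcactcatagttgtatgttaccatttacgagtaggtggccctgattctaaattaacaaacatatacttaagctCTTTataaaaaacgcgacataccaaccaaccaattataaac
AAAG was matched 3 times before XTH19 and 5 times before XTH20, and at least once before all 33 members, where 98.0% of 27561 gene starts held it with a median of 4 matches. GCCGCC was matched before none of the 33 members, and 1.88% of all starts held it.

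Of the 33 members, 23 were counted highly enough to be tested, 6 were counted but too low, and 4 had no count in any of the 36 libraries. The 4 without a count were XTH1, XTH2, XTH3 and XTH21, the last of these known from root growth. Among the 6 low members, XTH12, XTH13, XTH14 and XTH29 never exceeded 0.25 CPM, and XTH26, known from root hairs, reached at most 0.224 CPM. XTH25 reached 8.85 CPM in Col-0 rootstock library 1, the library that held the loci counted nowhere else, and XTH12, XTH13, XTH14 and XTH29 were also highest there. All counts and medians below are over the 23 tested members, which passed through the groups where they were high, and so do not stand for the whole family.

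Summed over the 33 members, CPM scaled by trimmed mean of M-values (TMM) were 2813, 3081 and 3472 in Col-0 scions and 4567, 3716 and 5199 in Col-0 rootstocks, against 7629, 4719.9 and 7777 in Col-0 intact hypocotyls. The scion sums lay below every intact sum, whereas the rootstock and intact sums overlapped. Members reaching a group mean of 10 CPM numbered 18 in Col-0 scions and 16 in Col-0 rootstocks, against 9 in Col-0 intact hypocotyls. The share of all loci reaching that level in each tissue was not counted, so whether this is particular to the family is not known. Levels were compared between genes as CPM per kilobase of exon. In intact Col-0 hypocotyls XTH4 (2149 ± 613 CPM per kb, SD, n = 3) and XTH7 (1617 ± 407) stood highest with overlapping spreads, followed by XTH31 (428 ± 188) and XTH32 (195 ± 97.5), whose spreads also overlapped. The order in scions was XTH7 (827 ± 63.02), XTH4 (479 ± 79.05) and XTH31 (242 ± 11.8), and then XTH19 (89.4 ± 23.9) beside XTH32 (88.4 ± 11.002). In rootstocks a member at 8.54 ± 4.78 CPM per kb in intact tissue came first, XTH24 with 1866 ± 402, ahead of XTH4 (617 ± 275), XTH7 (164 ± 34.7), XTH27 (127 ± 2.93) and XTH19 (112 ± 62.7). XTH24 made up 46.8% of the family's per-kb sum in dof quadruple rootstocks, 68.9% in erf114,115 rootstocks, 57.8% in anac071,096 rootstocks and 55.5% in Col-0 rootstocks, and at most 1.69% in any scion or intact group.

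**Figure D1:**
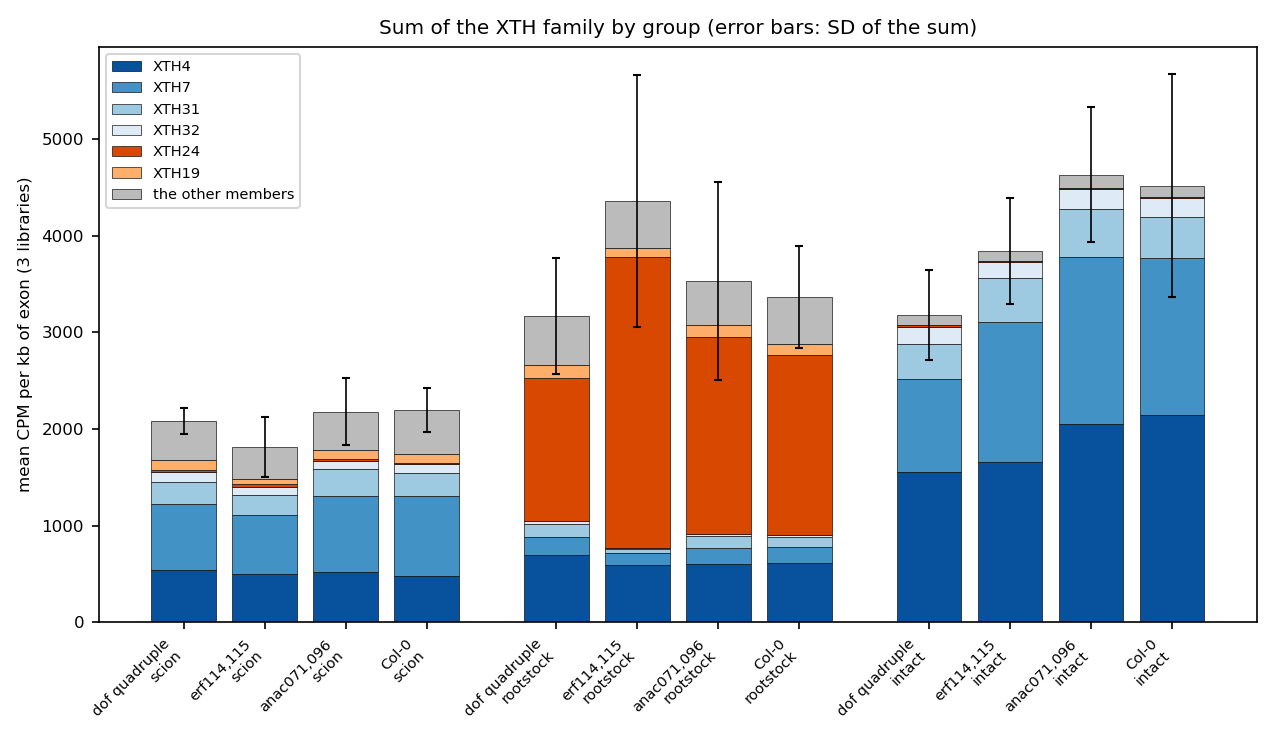
Mean level of the XTH family in each of the 12 groups, as CPM per kilobase of exon summed over members and stacked by member, with the SD of the sum over 3 libraries as the error bar. XTH24 takes 46.8% to 68.9% of the sum in the 4 rootstock groups, and XTH4 and XTH7 lead in the intact groups.

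In Col-0, 14 of the 23 tested members were higher and 5 lower in scions than in intact hypocotyls, where 29.0% and 25.2% of the 19476 tested loci were (edgeR's quasi-likelihood test, Benjamini-Hochberg adjusted p under 0.05, here and below). The median log2 change of the 23 was 2.29, against 0.01 over all tested loci. In rootstocks 13 were higher and 5 lower, against 22.6% and 17.0% of tested loci, and the median was 1.76, against 0.03. Between the sides of the graft, 8 members were higher and 5 lower in scions than in rootstocks, against 23.5% and 22.7% of tested loci, with medians of 0.82 and 0.08. The scion and rootstock comparisons share the same 3 intact libraries, so their values are given side by side. Upper-quartile scaling moved the median of all loci by -0.11 log2 in the rootstock comparison and by 0.12 in that between the sides, and gave the same 18 calls in the rootstock comparison. Between the sides it gave 11 higher and 4 lower members. The 5 lower members in scions were 3 without intact library 3, scion library 1 or scion library 2, and the 8 higher between the sides were 5 without rootstock library 1.

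**Figure D2:**
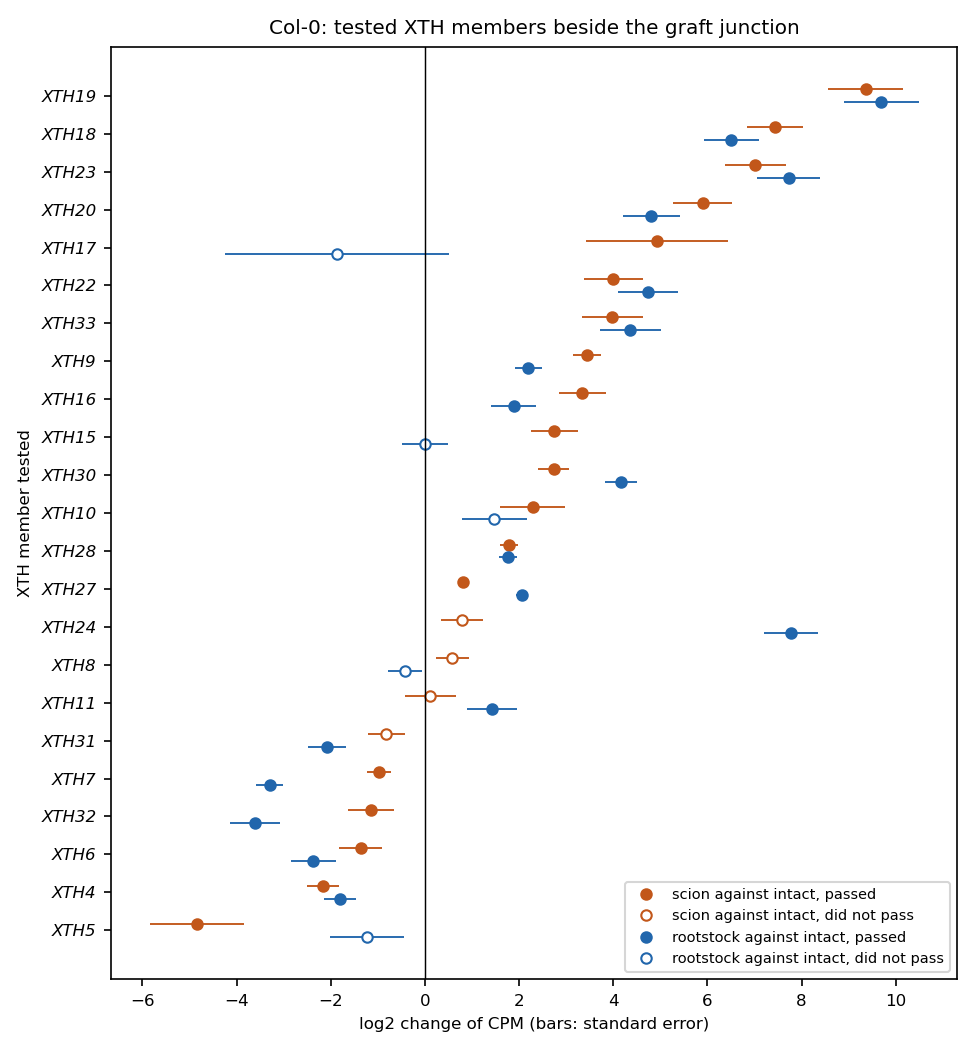
Log2 change with its SE of the 23 tested members in Col-0, for scion against intact and rootstock against intact. Filled points passed an adjusted p of 0.05. XTH19, XTH18 and XTH23 lie furthest to the right on both sides of the graft, XTH24 in rootstocks, and XTH4 and XTH7 to the left.

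XTH18, XTH19 and XTH20 were at most at 1.61 CPM in any Col-0 intact library and at 11.9 to 240.3 CPM in the grafted ones. XTH19 (AT4G30290) had 88.6, 117 and 152 CPM in Col-0 scions and 74.9, 135 and 240.3 CPM in Col-0 rootstocks, against 0.0919, 0.385 and 0 CPM in Col-0 intact hypocotyls. Every scion and rootstock library lay above every intact library, and its log2 change was 9.36 ± 0.79 (SE) in scions (adjusted p = 4.91e-11) and 9.69 ± 0.79 in rootstocks (adjusted p = 3.8e-11). XTH18 and XTH19 are known from root growth. XTH18 (AT4G30280) had 33.1, 43.1 and 39.4 CPM in Col-0 scions and 11.9, 20.2 and 28.7 CPM in Col-0 rootstocks, against 0.184, 0.419 and 0 CPM in Col-0 intact hypocotyls. No scion or rootstock library overlapped the intact range, and its log2 change was 7.44 ± 0.59 (SE) in scions (adjusted p = 1.43e-11) and 6.51 ± 0.58 in rootstocks (adjusted p = 2.09e-10). XTH20 (AT5G48070) had 47.3, 80.5 and 71.1 CPM in Col-0 scions and 23.99, 24.2 and 45.4 CPM in Col-0 rootstocks, against 0.551, 1.61 and 1.101 CPM in Col-0 intact hypocotyls. For XTH20, the other gene tied to healing of cut stems, both sides of the graft again lay above the intact range, and its log2 change was 5.90 ± 0.63 (SE) in scions (adjusted p = 4.68e-09) and 4.81 ± 0.61 in rootstocks (adjusted p = 1.62e-07). XTH17, the closest relative of XTH18, stayed low, with a mean of 0.565 ± 0.457 CPM in scions and no count in rootstocks, against 0.0117 ± 0.0202 CPM in intact hypocotyls (SD, n = 3). Its 46 scion counts against 1 intact count gave a ratio of 40.9-fold (95% counting interval 6.99 to 1652; adjusted p = 0.00747), and it was at least 11.9-fold higher in scions than in rootstocks (adjusted p = 0.00509). Between scions and rootstocks XTH18 and XTH20 did not pass (0.93 ± 0.39, adjusted p = 0.0531, and 1.09 ± 0.49, adjusted p = 0.0697), nor did XTH19 (-0.33 ± 0.48, 95% interval -1.32 to 0.66). Without rootstock library 3 XTH18 (adjusted p = 0.0242) and XTH20 (adjusted p = 0.0392) passed as higher in scions. Both also passed by edgeR with upper-quartile scaling (adjusted p = 0.0240 and 0.0382) and with only the compared groups in the fit (0.0162 and 0.0114). By DESeq2 XTH18 passed (adjusted p = 0.0340) and XTH20 did not. Neither passed with the replicate number as a block or without the filter on low counts. Most intact counts of XTH18 and XTH19 came from Col-0 intact library 2. Without it XTH19 was 2578-fold higher as a ratio of CPM (95% counting interval 713 to 21288, from 2 counts) in scions and 3177-fold higher as a ratio of CPM (95% counting interval 879 to 26238, from 2 counts) in rootstocks. XTH18 then changed by log2 8.63 in scions and 7.71 in rootstocks, and XTH17 in scions was at least 8.24-fold higher, since the intact group then had no count.

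XTH22 and XTH23 were high on both sides of the graft, and XTH24 on the rootstock side. XTH23 (AT4G25810) had 51.2, 57.7 and 52.2 CPM in Col-0 scions and 77.7, 95.3 and 90.05 CPM in Col-0 rootstocks, against 0, 1.05 and 0.0459 CPM in Col-0 intact hypocotyls. All grafted libraries exceeded all intact libraries, and its log2 change was 7.02 ± 0.65 (SE) in scions (adjusted p = 3.15e-10) and 7.72 ± 0.66 in rootstocks (adjusted p = 9.49e-11). XTH22 is TCH4, known for its response to touch. XTH22 (AT5G57560) had 44.6, 49.6 and 45.3 CPM in Col-0 scions and 61.8, 87.96 and 81.9 CPM in Col-0 rootstocks, against 3.95, 4.33 and 0.321 CPM in Col-0 intact hypocotyls. Its grafted libraries also lay clear of the intact range, and its log2 change was 4.00 ± 0.62 (SE) in scions (adjusted p = 3.06e-06) and 4.73 ± 0.64 in rootstocks (adjusted p = 5.2e-07). XTH24 (AT4G30270) had 19.9, 17.4 and 16.03 CPM in Col-0 scions and 2780.4, 1818 and 2174 CPM in Col-0 rootstocks, against 8.13, 5.98 and 16.9 CPM in Col-0 intact hypocotyls. The 3 rootstock libraries stood far above the rest, while scion and intact libraries overlapped. The log2 change of XTH24 was 7.78 ± 0.58 in rootstocks (adjusted p = 6.32e-12) and 0.79 ± 0.45 in scions (95% interval -0.13 to 1.70; adjusted p = 0.1395), and it was 127-fold lower in scions than in rootstocks (log2 -6.99 ± 0.56, adjusted p = 4.46e-11). Without intact library 3 XTH24 passed in scions (log2 1.34, adjusted p = 0.0262). XTH22 and XTH23 averaged less in scions than in rootstocks, by -0.73 ± 0.54 (adjusted p = 0.275) and -0.71 ± 0.45 (adjusted p = 0.209) on the log2 scale, which did not pass. Their scion and rootstock libraries did not overlap. With only the compared groups in the fit XTH22 (edgeR adjusted p = 0.000985) and XTH23 (0.000439) passed as lower in scions. Without Col-0 intact library 2, XTH23 was 2347-fold higher as a ratio of CPM (95% counting interval 421 to 92739, from 1 count) in scions and 3841-fold higher as a ratio of CPM (95% counting interval 689 to 151746, from 1 count) in rootstocks.

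**Figure D3:**
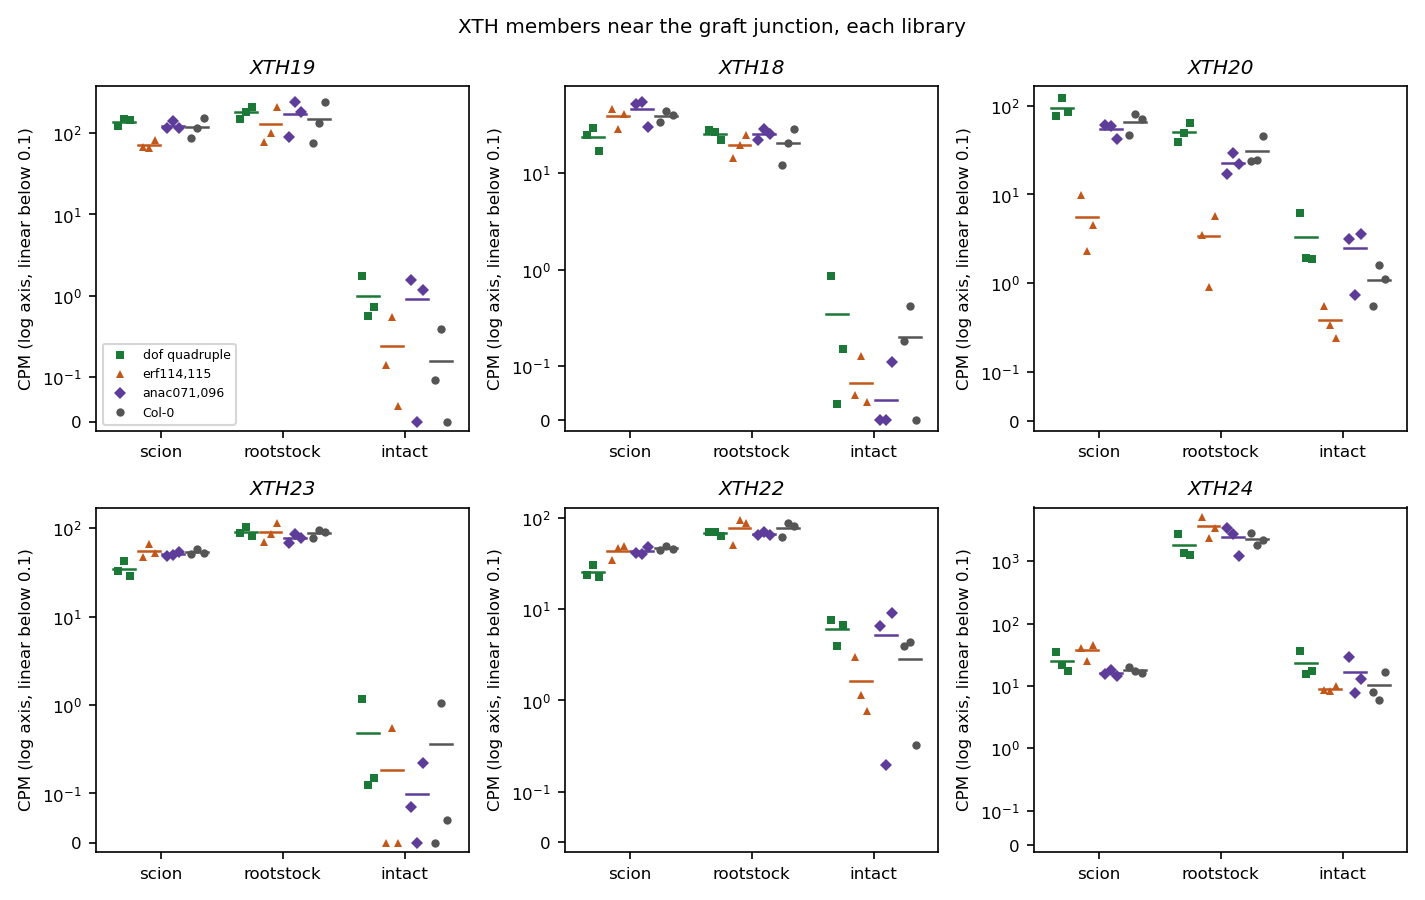
CPM of XTH19, XTH18, XTH20, XTH23, XTH22 and XTH24 in each library by genotype and tissue, with points for libraries and bars for group means. In Col-0 the scion and rootstock points of the first 5 genes lie above all intact points, and XTH24 separates in rootstocks, at 1818 to 2780.4 CPM.

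Other members that rose did so to different degrees on the 2 sides. XTH9 is known from shoot apices and from xylem cell expansion. XTH9 (AT4G03210) had 74.3, 91.1 and 111 CPM in Col-0 scions and 35.3, 37.2 and 44.3 CPM in Col-0 rootstocks, against 10.2, 6.43 and 8.86 CPM in Col-0 intact hypocotyls. Its scion libraries were highest, its rootstock libraries intermediate and its intact libraries lowest without overlap, and its log2 change was 3.44 ± 0.30 (SE) in scions (adjusted p = 9.61e-11) and 2.20 ± 0.29 in rootstocks (adjusted p = 3.11e-07). XTH16 (AT3G23730) had 26.3, 48.4 and 63.4 CPM in Col-0 scions and 10.9, 15.4 and 24.01 CPM in Col-0 rootstocks, against 5.098, 2.901 and 5.69 CPM in Col-0 intact hypocotyls. Grafted and intact libraries of XTH16 did not overlap, and its log2 change was 3.34 ± 0.50 (SE) in scions (adjusted p = 1.77e-06) and 1.88 ± 0.48 in rootstocks (adjusted p = 0.00229). XTH15, known from shade-induced petiole growth, overlaps an antisense locus, so with the strand setting of the counting not given in the sources used here its reads may include that locus. XTH15 (AT4G14130) had 11.7, 14.4 and 13.5 CPM in Col-0 scions and 1.05, 1.69 and 3.19 CPM in Col-0 rootstocks, against 1.65, 2.17 and 2.07 CPM in Col-0 intact hypocotyls. Its scion libraries stood above all others and its rootstock and intact libraries overlapped, with a log2 change of 2.74 ± 0.50 in scions (adjusted p = 2.82e-05) and a 95% interval of -1.01 to 1.01 in rootstocks. Scions exceeded rootstocks for XTH15 by 2.75 ± 0.50 (adjusted p = 4.93e-05), for XTH16 by 1.46 ± 0.46 (adjusted p = 0.0109) and for XTH9 by 1.25 ± 0.28 (adjusted p = 0.000489). The XTH16 difference between the sides did not pass without Col-0 rootstock library 1 (adjusted p = 0.06297) or scion library 3 (adjusted p = 0.0648).

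Among weakly expressed members, XTH33, which carries a membrane anchor, averaged 5.85 ± 1.75 CPM in scions and 7.62 ± 3.84 CPM in rootstocks, against 0.372 ± 0.4501 CPM in intact hypocotyls, and its log2 change was 3.98 ± 0.64 (SE) in scions (adjusted p = 5.37e-06) and 4.36 ± 0.65 in rootstocks (adjusted p = 2.4e-06). Without Col-0 intact library 1 its log2 change was 5.39 in scions and 5.76 in rootstocks. XTH10 averaged 4.39 ± 0.423 CPM in scions and 2.48 ± 1.27 CPM in rootstocks, against 0.895 ± 0.0823 CPM in intact hypocotyls, and passed in scions (2.29 ± 0.69, adjusted p = 0.00615) and not in rootstocks (1.47 ± 0.69, adjusted p = 0.0901). XTH11 averaged 0.905 ± 0.348 CPM in scions and 2.26 ± 0.434 CPM in rootstocks, against 0.841 ± 0.385 CPM in intact hypocotyls. It passed in rootstocks (1.43 ± 0.53, adjusted p = 0.0319) and was lower in scions than in rootstocks (-1.31 ± 0.52, adjusted p = 0.0408). Both XTH11 calls were lost without any of 4 of the 6 libraries, which were intact libraries 1 and 2 and rootstock libraries 1 and 2 for the change in rootstocks and scion libraries 1 and 3 and rootstock libraries 1 and 2 for the difference between the sides, with adjusted p-values up to 0.121 and 0.145. XTH8 (AT1G11545) had 30.7, 37.1 and 36.4 CPM in Col-0 scions and 13.2, 13.5 and 24.96 CPM in Col-0 rootstocks, against 30.8, 20.5 and 18.2 CPM in Col-0 intact hypocotyls. XTH8 differed from intact tissue on neither side (0.59 ± 0.35, 95% interval -0.14 to 1.31, and -0.43 ± 0.36, interval -1.15 to 0.30), but was higher in scions than in rootstocks (1.01 ± 0.36, adjusted p = 0.0215). That call did not pass without rootstock library 1 or 2 or scion library 2 or 3, with adjusted p-values up to 0.0962.

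XTH27, XTH28 and XTH30, of the third group of the family, rose on both sides. XTH27, known as EXGT-A3 and from leaf vein differentiation, rose more in rootstocks. XTH27 (AT2G01850) had 76.9, 90.3 and 82.8 CPM in Col-0 scions and 199, 192 and 200.02 CPM in Col-0 rootstocks, against 45.1, 47.8 and 48.9 CPM in Col-0 intact hypocotyls. The 3 tissues did not overlap, its log2 change was 0.82 ± 0.12 (SE) in scions (adjusted p = 9.41e-07) and 2.06 ± 0.12 in rootstocks (adjusted p = 5.48e-14), and scions were lower than rootstocks by -1.24 ± 0.12 (adjusted p = 1.08e-09). XTH30 (AT1G32170) had 41.4, 42.6 and 25.7 CPM in Col-0 scions and 84.2, 95.7 and 115 CPM in Col-0 rootstocks, against 6.15, 5.94 and 4.41 CPM in Col-0 intact hypocotyls. XTH30 showed the same order of tissues without overlap: its log2 change was 2.73 ± 0.32 (SE) in scions (adjusted p = 2.97e-08) and 4.16 ± 0.34 in rootstocks (adjusted p = 3.54e-11), and its scion level was 2.68-fold below the rootstock level (adjusted p = 0.000293). XTH28 is known from stamen filament growth. XTH28 (AT1G14720) had 91.5, 92.8 and 103 CPM in Col-0 scions and 92.7, 88.5 and 102 CPM in Col-0 rootstocks, against 33.5, 22.6 and 27.2 CPM in Col-0 intact hypocotyls. Its scion and rootstock libraries overlapped each other and exceeded all intact libraries, and its log2 change was 1.79 ± 0.20 (SE) in scions (adjusted p = 7.61e-09) and 1.76 ± 0.20 in rootstocks (adjusted p = 1.47e-08).

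The members that led in intact hypocotyls fell at the graft. XTH4 is known from expanding tissue and from wood formation. XTH4 (AT2G06850) had 669, 738 and 916 CPM in Col-0 scions and 777, 705 and 1508 CPM in Col-0 rootstocks, against 4342, 2393 and 3675 CPM in Col-0 intact hypocotyls. Every grafted library lay below every intact library, and its log2 change was -2.16 ± 0.34 (SE) in scions (adjusted p = 3.41e-06) and -1.80 ± 0.34 in rootstocks (adjusted p = 6.5e-05). XTH7 (AT4G37800) had 1008, 1030.4 and 1159 CPM in Col-0 scions and 186, 185 and 263 CPM in Col-0 rootstocks, against 2349.9, 1477 and 2419 CPM in Col-0 intact hypocotyls. XTH7 fell more below the cut than above it, as its log2 change was -0.97 ± 0.26 (SE) in scions (adjusted p = 0.00209) and -3.30 ± 0.28 in rootstocks (adjusted p = 5.78e-11), and scions exceeded rootstocks by 2.33 ± 0.27 (adjusted p = 2.95e-08). XTH6 (AT5G65730) had 13.7, 15.8 and 27.5 CPM in Col-0 scions and 9.796, 6.53 and 12.1 CPM in Col-0 rootstocks, against 39.2, 40.9 and 66.2 CPM in Col-0 intact hypocotyls. All grafted libraries of XTH6 stood below the intact ones, and its log2 change was -1.36 ± 0.46 (SE) in scions (adjusted p = 0.0132) and -2.37 ± 0.48 in rootstocks (adjusted p = 0.000184). The scion call of XTH6 did not pass without intact library 3 (adjusted p = 0.0746), scion library 1 (0.0667) or scion library 2 (0.0552). XTH5, with 0.0722 ± 0.0682 CPM in scions and 0.949 ± 0.423 CPM in rootstocks, against 2.23 ± 1.28 CPM in intact hypocotyls, fell in scions (-4.84 ± 1.00, adjusted p = 0.000154), where 6 counts remained, and was lower in scions than in rootstocks (-3.61 ± 1.01, adjusted p = 0.00444). Without scion library 2 it was 60.7-fold lower as a ratio of CPM (95% counting interval 16.6 to 506, from 2 counts) against intact tissue and 24.7-fold lower as a ratio of CPM (95% counting interval 6.54 to 209, from 2 counts) against rootstocks.

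Both members of the hydrolase branch fell in rootstocks. XTH32 (AT2G36870) had 146, 174 and 188 CPM in Col-0 scions and 15.4, 25.6 and 50.9 CPM in Col-0 rootstocks, against 319, 219.8 and 581 CPM in Col-0 intact hypocotyls. Scion libraries lay between the others, and its log2 change was -1.14 ± 0.49 (SE) in scions (adjusted p = 0.0485) and -3.61 ± 0.53 in rootstocks (adjusted p = 2.35e-06). XTH31 (AT3G44990) had 329, 327 and 356 CPM in Col-0 scions and 92.5, 154 and 176 CPM in Col-0 rootstocks, against 430.2, 461 and 898 CPM in Col-0 intact hypocotyls. For XTH31 the rootstock libraries were lowest, and the scion libraries lay below the intact range without passing: its log2 change was -0.82 ± 0.39 (SE) in scions (adjusted p = 0.0784) and -2.08 ± 0.41 in rootstocks (adjusted p = 0.000122). Scions exceeded rootstocks for XTH32 by 2.47 ± 0.51 (adjusted p = 0.0002296) and for XTH31 by 1.26 ± 0.40 (adjusted p = 0.0106). The fall of XTH32 in scions did not pass without any 1 of intact libraries 1 and 3 and the 3 scion libraries (adjusted p up to 0.297, without intact library 3), and the XTH31 difference between the sides did not pass without rootstock library 1 (adjusted p = 0.0658).

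The 17 other genes of xyloglucan synthesis and trimming were all tested. They comprised the CSLC backbone synthases, the XXT xylosyltransferases, the galactosyltransferases MUR3 and XLT2, the fucosyltransferase FUT1, the acetylation gene AXY4 and the apoplastic glycosidases XYL1, BGAL10 and FUC95A. In Col-0 scions 10 were higher and 1 lower than in intact hypocotyls (29.0% and 25.2% of tested loci; median log2 change 0.69). In rootstocks 4 were higher and 5 lower (22.6% and 17.0% of tested loci; median 0.19), so the share of higher genes was near that of all loci, and 11 were higher and 1 lower in scions than in rootstocks (23.5% and 22.7%; median 0.71). In scions FUC95A rose by 2.01 ± 0.20 (82.7 CPM in scions, against 20.5 CPM in intact hypocotyls; adjusted p = 8.69e-10), CSLC12 by 3.24 ± 0.41 (5.75 CPM in scions, against 0.5901 CPM in intact hypocotyls; adjusted p = 8.59e-08), MUR3 by 1.47 ± 0.21 (70.6 CPM in scions, against 25.5 CPM in intact hypocotyls; adjusted p = 1.09e-06) and XXT1 by 1.52 ± 0.25 (60.4 CPM in scions, against 21.1 CPM in intact hypocotyls; adjusted p = 9.11e-06). In rootstocks FUC95A rose by 1.78 ± 0.20 (adjusted p = 1.21e-08), XXT1 by 1.89 ± 0.26 (adjusted p = 5.14e-07) and CSLC12 by 2.45 ± 0.41 (adjusted p = 1.19e-05), and CSLC8 changed by -1.14 ± 0.18 (6.55 CPM in rootstocks, against 14.4 CPM in intact hypocotyls; adjusted p = 5.95e-06). Scions exceeded rootstocks for MUR3 by 1.10 ± 0.21 (adjusted p = 0.000106), XXT3 by 1.90 ± 0.37 (adjusted p = 0.000118), XLT2 by 1.09 ± 0.23 (adjusted p = 0.000318) and CSLC5 by 0.76 ± 0.16 (adjusted p = 0.000329). In the mutants' own comparisons the 17 genes gave 11 higher and 0 lower in dof quadruple scions (28.7% and 25.6% of tested loci), 9 higher and 1 lower in erf114,115 scions (28.7% and 21.6%), and 9 higher and 3 lower in anac071,096 scions (27.0% and 22.9%). Rootstocks gave 8 higher and 4 lower in dof quadruple (22.9% and 17.4%), 4 higher and 5 lower in erf114,115 (26.9% and 17.9%), and 3 higher and 5 lower in anac071,096 (21.7% and 16.4%).

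The mutants were next compared with their own intact hypocotyls. In dof quadruple, 14 tested members were higher and 1 lower in scions (28.7% and 25.6% of tested loci; median log2 change 1.75, against -0.01 over all loci), and 12 were higher and 5 lower in rootstocks (22.9% and 17.4%; 1.55 against 0.01). In erf114,115, 14 were higher and 3 lower in scions (28.7% and 21.6%; 1.70 against 0.04), and 13 were higher and 5 lower in rootstocks (26.9% and 17.9%; 1.79 against 0.08). In anac071,096, 13 were higher and 4 lower in scions (27.0% and 22.9%; 1.44 against 0.04), and 13 were higher and 6 lower in rootstocks (21.7% and 16.4%; 1.89 against 0.05). The 1 lower member in dof quadruple scions became 2 without intact library 1, and with only the compared groups in the fit 5, as did the 3 in erf114,115 scions; with the replicate number as a block erf114,115 scions also had 5. XTH9, XTH16, XTH18, XTH19, XTH20, XTH22, XTH23, XTH27, XTH28, XTH30 and XTH33 rose on both sides of the graft in all 4 genotypes, and XTH4 fell on both sides in all 4. Falls in XTH6, XTH7, XTH31 and XTH32 passed in the rootstocks of all 4 genotypes, and in scions of 2, 3, 1 and 2 genotypes. The share of all tested loci that passed in the same direction in all 4 genotypes was not counted. Whether such agreement is more frequent in the family than elsewhere is therefore not known.

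In the XTH18 to XTH20 group the rise over intact tissue was present in each mutant. XTH19 had 123, 149.98 and 145 CPM in dof quadruple scions, 67.9, 65.96 and 82.3 CPM in erf114,115 scions and 115, 143 and 115 CPM in anac071,096 scions. In rootstocks XTH19 had 151, 185 and 208 CPM in dof quadruple, 78.3, 101 and 214 CPM in erf114,115 and 90.5, 243 and 184 CPM in anac071,096. In intact hypocotyls XTH19 had 1.73, 0.555 and 0.718 CPM in dof quadruple, 0.1398, 0.553 and 0.0346 CPM in erf114,115 and 1.58, 0 and 1.17 CPM in anac071,096. All scion and rootstock libraries of XTH19 lay above all intact libraries of the same genotype, and over the 4 genotypes its log2 change ran from 7.03 to 9.36 in scions and 7.50 to 9.69 in rootstocks. XTH19 without erf114,115 intact library 2 changed by log2 9.72 in scions and 10.59 in rootstocks. XTH19 without erf114,115 intact library 3 changed by log2 7.65 in scions and 8.51 in rootstocks. XTH19 without anac071,096 intact library 1 changed by log2 7.78 in scions and 8.25 in rootstocks. Without dof quadruple intact library 1 it was 8.16 on the log2 scale in rootstocks. XTH18 had 24.6, 28.8 and 16.6 CPM in dof quadruple scions, 45.9, 28.6 and 40.7 CPM in erf114,115 scions and 51.6, 54.01 and 29.8 CPM in anac071,096 scions. In rootstocks XTH18 had 27.5, 26.1 and 21.6 CPM in dof quadruple, 14.2, 19.4 and 24.5 CPM in erf114,115 and 22.1, 28.6 and 25.2 CPM in anac071,096. In intact hypocotyls XTH18 had 0.866, 0.0308 and 0.151 CPM in dof quadruple, 0.0466, 0.128 and 0.0346 CPM in erf114,115 and 0, 0 and 0.112 CPM in anac071,096. XTH18 was likewise separated from intact tissue in each mutant, with fitted log2 changes of 6.27 to 10.30 in scions and 6.38 to 9.46 in rootstocks over the 4 genotypes. In anac071,096 only 2 intact counts were present, and the ratio was 1469.5-fold in scions (95% counting interval 407 to 12139) and 824-fold in rootstocks (228 to 6813). XTH18 without dof quadruple intact library 1 changed by log2 8.01 in scions and 8.11 in rootstocks. XTH18 without dof quadruple intact library 2 changed by log2 5.61 in scions and 5.71 in rootstocks. XTH18 without erf114,115 intact library 2 was 949-fold higher as a ratio of CPM (95% counting interval 263 to 7842, from 2 counts) in scions and 492-fold higher as a ratio of CPM (95% counting interval 136 to 4069, from 2 counts) in rootstocks. XTH18 without anac071,096 intact library 1 was 858-fold higher as a ratio of CPM (95% counting interval 237 to 7087, from 2 counts) in scions and 481-fold higher as a ratio of CPM (95% counting interval 133 to 3977, from 2 counts) in rootstocks. XTH18 without anac071,096 intact library 3 was at least 712-fold higher in scions and at least 399-fold higher in rootstocks, since the intact group then had no count.

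XTH20 had 76.7, 123 and 85.96 CPM in dof quadruple scions, 9.87, 2.31 and 4.57 CPM in erf114,115 scions and 61.3, 59.4 and 42.5 CPM in anac071,096 scions. In rootstocks XTH20 had 39.6, 49.5 and 64.4 CPM in dof quadruple, 3.47, 0.911 and 5.76 CPM in erf114,115 and 17.1, 29.3 and 22.4 CPM in anac071,096. In intact hypocotyls XTH20 had 6.11, 1.94 and 1.85 CPM in dof quadruple, 0.559, 0.3404 and 0.242 CPM in erf114,115 and 3.12, 0.738 and 3.63 CPM in anac071,096. XTH20 exceeded the intact range on both sides in each mutant, with erf114,115 at the low end: its log2 change there was 3.88 ± 0.68 in scions (adjusted p = 1.96e-05) and 3.17 ± 0.70 in rootstocks (adjusted p = 0.000456), and over the 4 genotypes the range was 3.88 to 5.90 in scions and 3.17 to 4.81 in rootstocks. Without erf114,115 scion library 1 the scion change was 3.10 on the log2 scale, and without rootstock library 3 the rootstock change was 2.52 on the log2 scale. XTH20 without dof quadruple intact library 1 changed by log2 5.64 in scions and 4.75 in rootstocks. XTH17 passed in anac071,096 scions (0.7005 ± 0.0792 CPM, against 0.0744 ± 0.129 CPM in intact hypocotyls; 3.32 ± 1.26, adjusted p = 0.0305), a call lost without intact library 1 or 2 or scion library 1 or 3 (adjusted p up to 0.126); without intact library 3 it was at least 11.1-fold higher, since the intact group then had no count. XTH17 did not pass in dof quadruple scions, at 0.3598 ± 0.378 CPM, against 0.101 ± 0.0877 CPM in intact hypocotyls, nor in erf114,115 scions, at 0.389 ± 0.167 CPM, against 0.105 ± 0.152 CPM in intact hypocotyls, where it passed without intact library 1 (adjusted p = 0.0483).

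XTH23 had 32.9, 42.03 and 29.04 CPM in dof quadruple scions, 47.2, 65.6 and 52.3 CPM in erf114,115 scions and 48.04, 49.8 and 53.7 CPM in anac071,096 scions. In rootstocks XTH23 had 87.6, 103 and 80.7 CPM in dof quadruple, 69.9, 85.8 and 113 CPM in erf114,115 and 68.1, 85.6 and 77.4 CPM in anac071,096. In intact hypocotyls XTH23 had 1.17, 0.123 and 0.151 CPM in dof quadruple, 0, 0.553 and 0 CPM in erf114,115 and 0.0734, 0 and 0.223 CPM in anac071,096. XTH23 was separated from the intact range in each mutant, and its fitted log2 changes were 6.35 to 9.02 in scions and 7.72 to 9.63 in rootstocks over the 4 genotypes. XTH23 without dof quadruple intact library 1 changed by log2 7.94 in scions and 9.33 in rootstocks. XTH23 without erf114,115 intact library 2 was at least 935-fold higher in scions and at least 1511-fold higher in rootstocks, since the intact group then had no count. XTH23 without erf114,115 intact library 3 changed by log2 7.56 in scions and 8.26 in rootstocks. XTH23 without anac071,096 intact library 3 was 1204-fold higher as a ratio of CPM (95% counting interval 333 to 9942, from 2 counts) in scions and 1826-fold higher as a ratio of CPM (95% counting interval 505 to 15081, from 2 counts) in rootstocks. XTH22 had 23.7, 30.6 and 22.4 CPM in dof quadruple scions, 34.4, 47.3 and 49.9 CPM in erf114,115 scions and 41.7, 40.9 and 47.97 CPM in anac071,096 scions. In rootstocks XTH22 had 71.03, 69.9 and 63.8 CPM in dof quadruple, 50.5, 95.9 and 88.6 CPM in erf114,115 and 64.5, 69.8 and 65.6 CPM in anac071,096. In intact hypocotyls XTH22 had 7.54, 3.94 and 6.68 CPM in dof quadruple, 2.98, 1.15 and 0.762 CPM in erf114,115 and 6.49, 0.197 and 9.15 CPM in anac071,096. XTH22 rose in each mutant without overlap with intact tissue, by 2.09 to 4.78 in scions and 3.50 to 5.62 in rootstocks over the 4 genotypes, lowest in dof quadruple on both sides. XTH22 without erf114,115 intact library 1 changed by log2 5.53 in scions and 6.37 in rootstocks. XTH22 without anac071,096 intact library 3 changed by log2 3.66 in scions and 4.27 in rootstocks. XTH24 had 35.4, 21.7 and 17.1 CPM in dof quadruple scions, 40.4, 25.2 and 45.8 CPM in erf114,115 scions and 15.8, 18.2 and 14.3 CPM in anac071,096 scions. In rootstocks XTH24 had 2755, 1375 and 1251 CPM in dof quadruple, 5160.4, 2310.2 and 3444 CPM in erf114,115 and 3437, 2762 and 1205 CPM in anac071,096. In intact hypocotyls XTH24 had 36.4, 15.3 and 17.4 CPM in dof quadruple, 8.76, 8.42 and 10.1 CPM in erf114,115 and 28.8, 7.63 and 13.1 CPM in anac071,096. XTH24 again stood apart in rootstocks, at a log2 change of 6.29 to 8.64 over the 4 genotypes. It passed in scions in 1 genotype, erf114,115 (2.03 ± 0.46, adjusted p = 0.000453), and the difference of that scion response from that of Col-0 was 1.24 ± 0.63 (adjusted p = 0.9999), which did not pass. Without anac071,096 intact library 1 the rootstock change there was 7.90 on the log2 scale.

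XTH9 had 49.6, 76.7 and 71.9 CPM in dof quadruple scions, 77.6, 53.6 and 80.8 CPM in erf114,115 scions and 56.6, 76.7 and 61.6 CPM in anac071,096 scions. In rootstocks XTH9 had 31.6, 32.4 and 25.4 CPM in dof quadruple, 38.5, 21.4 and 52.998 CPM in erf114,115 and 27.7, 50.5 and 28.3 CPM in anac071,096. In intact hypocotyls XTH9 had 5.86, 5.92 and 5.74 CPM in dof quadruple, 7.83, 7.11 and 4.92 CPM in erf114,115 and 7.12, 6.79 and 12.3 CPM in anac071,096. For XTH9, scions exceeded rootstocks and both exceeded intact tissue in each mutant's means, with log2 changes of 2.90 to 3.50 in scions and 2.03 to 2.51 in rootstocks over the 4 genotypes. XTH16 had 17.7, 40.2 and 48.5 CPM in dof quadruple scions, 21.7, 21.7 and 36.9 CPM in erf114,115 scions and 28.03, 52.4 and 41.9 CPM in anac071,096 scions. In rootstocks XTH16 had 10.8, 15.2 and 14.3 CPM in dof quadruple, 8.76, 8.02 and 25.7 CPM in erf114,115 and 10.98, 33.5 and 23.2 CPM in anac071,096. In intact hypocotyls XTH16 had 3.46, 5.21 and 8.61 CPM in dof quadruple, 3.45, 1.702 and 2.42 CPM in erf114,115 and 5.87, 2.81 and 5.69 CPM in anac071,096. XTH16 rose by 2.61 to 3.41 in scions and 1.22 to 2.49 in rootstocks. Its call in dof quadruple rootstocks was lost without rootstock library 2 or 3 or intact library 1 or 2 (adjusted p up to 0.155), and without erf114,115 rootstock library 3 the rootstock change was 1.74 on the log2 scale. XTH15 had 4.56, 5.298 and 5.27 CPM in dof quadruple scions, 9.29, 5.59 and 6.902 CPM in erf114,115 scions and 13.7, 12.1 and 9.82 CPM in anac071,096 scions. In rootstocks XTH15 had 1.202, 0.256 and 0.9804 CPM in dof quadruple, 0.551, 0.501 and 4.02 CPM in erf114,115 and 1.37, 2.61 and 1.81 CPM in anac071,096. In intact hypocotyls XTH15 had 1.53, 1.45 and 1.47 CPM in dof quadruple, 2.797, 1.79 and 2.11 CPM in erf114,115 and 1.21, 2.02 and 2.34 CPM in anac071,096. XTH15 rose in the scions of all 4 genotypes, by 1.70 to 2.74, and in the rootstocks of none (edgeR; log2 changes of -0.90 to 0.07). Without erf114,115 rootstock library 3, the highest of its group, XTH15 was lower in those rootstocks by log2 -2.07 (adjusted p = 0.000823).

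XTH27 had 93.2, 94.8 and 81.9 CPM in dof quadruple scions, 63.8, 69.3 and 64.2 CPM in erf114,115 scions and 80.1, 74.1 and 78.97 CPM in anac071,096 scions. In rootstocks XTH27 had 201, 179.9 and 165 CPM in dof quadruple, 218, 238 and 240.2 CPM in erf114,115 and 218, 206 and 188 CPM in anac071,096. In intact hypocotyls XTH27 had 45.1, 51.4 and 53.1 CPM in dof quadruple, 48.3, 46.8 and 40.5 CPM in erf114,115 and 54.6, 42.9 and 55.5 CPM in anac071,096. XTH27 rose on both sides in each mutant, by 0.54 to 0.85 in scions and 1.87 to 2.36 in rootstocks over the 4 genotypes. XTH30 had 35.2, 29.8 and 21.8 CPM in dof quadruple scions, 19.6, 16.5 and 19.2 CPM in erf114,115 scions and 20.5, 16.8 and 15.6 CPM in anac071,096 scions. In rootstocks XTH30 had 135, 118 and 107 CPM in dof quadruple, 109, 65.6 and 126 CPM in erf114,115 and 83.2, 79.1 and 41.6 CPM in anac071,096. In intact hypocotyls XTH30 had 14.6, 10.8 and 10.3 CPM in dof quadruple, 8.86, 5.28 and 4.05 CPM in erf114,115 and 8.66, 5.22 and 3.13 CPM in anac071,096. XTH30 rose by 1.29 to 2.73 in scions and 3.34 to 4.16 in rootstocks. XTH28 had 108, 113 and 99.7 CPM in dof quadruple scions, 82.1, 58.8 and 79.4 CPM in erf114,115 scions and 87.4, 94.5 and 81.5 CPM in anac071,096 scions. In rootstocks XTH28 had 116, 97.9 and 91.2 CPM in dof quadruple, 109.8, 62.2 and 113 CPM in erf114,115 and 87.5, 97.9 and 83.5 CPM in anac071,096. In intact hypocotyls XTH28 had 37.98, 27.8 and 29.2 CPM in dof quadruple, 32.2, 24.1 and 26.4 CPM in erf114,115 and 28.9, 27.1 and 41.1 CPM in anac071,096. XTH28 rose in each mutant, and over the 4 genotypes its log2 changes were 1.41 to 1.79 in scions and 1.47 to 1.79 in rootstocks.

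XTH4 had 788, 1022 and 814 CPM in dof quadruple scions, 1011, 646 and 783 CPM in erf114,115 scions and 1001, 901 and 595 CPM in anac071,096 scions. In rootstocks XTH4 had 1043, 1184 and 1159 CPM in dof quadruple, 749.97, 602 and 1535 CPM in erf114,115 and 744, 1495 and 678 CPM in anac071,096. In intact hypocotyls XTH4 had 3176, 2256 and 2116 CPM in dof quadruple, 3516, 2393 and 2131 CPM in erf114,115 and 3307, 3568 and 3043 CPM in anac071,096. XTH4 lay below the intact range on both sides in each mutant, with log2 changes of -2.16 to -1.52 in scions and -1.80 to -1.16 in rootstocks over the 4 genotypes. XTH7 had 928, 877 and 836 CPM in dof quadruple scions, 969, 626 and 734 CPM in erf114,115 scions and 1161, 1131 and 775 CPM in anac071,096 scions. In rootstocks XTH7 had 238, 226 and 254 CPM in dof quadruple, 172, 98.5 and 214 CPM in erf114,115 and 139, 287 and 209 CPM in anac071,096. In intact hypocotyls XTH7 had 1308, 1060.4 and 1342 CPM in dof quadruple, 2135, 1511 and 1952 CPM in erf114,115 and 1773, 2573 and 2347 CPM in anac071,096. XTH7 fell in each rootstock, by log2 values of -3.53 to -2.37, and in scions by -1.27 to -0.49, where dof quadruple did not pass (adjusted p = 0.105). XTH6 had 3.12, 9.64 and 12.4 CPM in dof quadruple scions, 8.96, 16.4 and 21.1 CPM in erf114,115 scions and 12.1, 19.1 and 14.8 CPM in anac071,096 scions. In rootstocks XTH6 had 0.418, 1.28 and 2.19 CPM in dof quadruple, 6.28, 7.29 and 10.1 CPM in erf114,115 and 4.94, 16.1 and 9.96 CPM in anac071,096. In intact hypocotyls XTH6 had 12.3, 12.02 and 13.3 CPM in dof quadruple, 26.1, 25.7 and 43.6 CPM in erf114,115 and 22.9, 69.01 and 66.1 CPM in anac071,096. Log2 changes of XTH6 were -3.25 to -2.01 in rootstocks, all past the threshold, and -1.78 to -0.58 in scions, where Col-0 and anac071,096 passed. Without scion library 3 XTH6 also passed in erf114,115 scions (adjusted p = 0.0447). In erf114,115 scions, whose libraries pair with intact ones by number, a fit with the replicate number as a block took XTH6 (adjusted p = 0.00696) and XTH5 (adjusted p = 0.0441) past the threshold.

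XTH31 had 342, 283 and 306 CPM in dof quadruple scions, 333, 272 and 269 CPM in erf114,115 scions and 404, 377 and 361 CPM in anac071,096 scions. In rootstocks XTH31 had 119, 179 and 235 CPM in dof quadruple, 40.7, 39.005 and 80.4 CPM in erf114,115 and 73.3, 175 and 297 CPM in anac071,096. In intact hypocotyls XTH31 had 463, 351 and 682 CPM in dof quadruple, 428, 556 and 907 CPM in erf114,115 and 385, 974 and 714 CPM in anac071,096. XTH31 fell in each rootstock, by -3.56 to -1.49 over the 4 genotypes, and in scions passed in erf114,115 (-1.11 ± 0.40, adjusted p = 0.0197), a call lost without intact library 3 (adjusted p = 0.146) or scion library 3 (adjusted p = 0.0643). In anac071,096 scions XTH31 passed as lower without intact library 1 (adjusted p = 0.0234). XTH32 had 207, 231 and 188 CPM in dof quadruple scions, 184, 133 and 187 CPM in erf114,115 scions and 166, 192 and 164 CPM in anac071,096 scions. In rootstocks XTH32 had 49.8, 67.3 and 82.1 CPM in dof quadruple, 8.05, 8.43 and 32.98 CPM in erf114,115 and 10.3, 27.99 and 45.1 CPM in anac071,096. In intact hypocotyls XTH32 had 369, 242 and 428 CPM in dof quadruple, 265, 278 and 436 CPM in erf114,115 and 184, 606 and 413 CPM in anac071,096. XTH32 had rootstock changes of -4.31 to -2.38, all past the threshold, and without erf114,115 rootstock library 3 the change there was -5.31 on the log2 scale. In scions XTH32 passed in anac071,096 (-1.20 ± 0.49, adjusted p = 0.0406), and lost the call without intact library 2 or 3 or any 1 of the 3 scion libraries (adjusted p up to 0.239).

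XTH8 had 38.7, 52.6 and 33.9 CPM in dof quadruple scions, 49.2, 26.1 and 33.9 CPM in erf114,115 scions and 55.5, 40.3 and 30.4 CPM in anac071,096 scions. In rootstocks XTH8 had 25.6, 26.3 and 27.4 CPM in dof quadruple, 16.1, 15.3 and 28.6 CPM in erf114,115 and 12.9, 31.1 and 20.02 CPM in anac071,096. In intact hypocotyls XTH8 had 17.8, 17.1 and 18.4 CPM in dof quadruple, 32.1, 17.6 and 11.5 CPM in erf114,115 and 31.9, 14.3 and 32.5 CPM in anac071,096. XTH8 rose in dof quadruple scions (1.23 ± 0.36, adjusted p = 0.00459), without overlap between scion and intact libraries, and passed in no other scion or rootstock group in the fit of 12 groups. With only the compared groups in the fit XTH8 also passed in dof quadruple rootstocks (adjusted p = 0.00544) and Col-0 scions (adjusted p = 0.0476). In erf114,115 scions it passed with upper-quartile scaling (adjusted p = 0.0477), without intact library 1 (log2 1.32, adjusted p = 0.00555) and without scion library 2 (adjusted p = 0.0343). XTH33 averaged 4.35 ± 1.28 CPM in dof quadruple scions and 9.999 ± 0.697 CPM in rootstocks, against 0.799 ± 0.0336 CPM in intact hypocotyls. In erf114,115 it averaged 4.24 ± 1.09 CPM in scions and 7.798 ± 1.97 CPM in rootstocks, against 0.0439 ± 0.0426 CPM in intact hypocotyls, and in anac071,096 5.35 ± 0.65 CPM in scions and 6.94 ± 2.301 CPM in rootstocks, against 0.549 ± 0.531 CPM in intact hypocotyls. XTH33 rose in all of these comparisons. With 3 intact counts in erf114,115, the XTH33 ratio there was 104-fold in scions (95% counting interval 35.4 to 508) and 189.6-fold in rootstocks (64.5 to 923). XTH33 without erf114,115 intact library 2 was 213-fold higher as a ratio of CPM (95% counting interval 38.1 to 8445, from 1 count) in scions and 388-fold higher as a ratio of CPM (95% counting interval 69.2 to 15347, from 1 count) in rootstocks. XTH33 without erf114,115 intact library 3 was 63.5-fold higher as a ratio of CPM (95% counting interval 21.6 to 309, from 3 counts) in scions and 115-fold higher as a ratio of CPM (95% counting interval 39.3 to 562, from 3 counts) in rootstocks. XTH33 without anac071,096 intact library 3 changed by log2 4.04 in scions and 4.42 in rootstocks. Group means of XTH5 in the 3 mutants were 0.312 to 0.721 CPM in scions and 0.855 to 1.698 CPM in rootstocks, against 0.978 to 2.14 CPM in intact hypocotyls, and it passed in none of these 6 comparisons by edgeR with all libraries in the fit of 12 groups. It passed as lower in dof quadruple scions without intact library 1 (adjusted p = 0.0417) and in erf114,115 scions without intact library 1 (adjusted p = 0.0407) or scion library 2 (adjusted p = 0.00525). Means of XTH10 were 1.098 to 2.29 CPM in scions and 0.133 to 1.63 CPM in rootstocks, against 0.266 to 0.706 CPM in intact hypocotyls. XTH10 passed in dof quadruple scions (2.50 ± 0.75, adjusted p = 0.00568; 4.22 on the log2 scale without intact library 2) and in erf114,115 scions (1.91 ± 0.70, adjusted p = 0.0241; lost without intact library 1 or 2 or scion library 2 or 3, adjusted p up to 0.0782). It also passed as higher in dof quadruple rootstocks without intact library 2 (log2 3.27, adjusted p = 0.0107) and in erf114,115 rootstocks without rootstock library 2 (adjusted p = 0.0497). Means of XTH11 were 0.623 to 1.07 CPM in scions and 1.54 to 2.298 CPM in rootstocks, against 0.536 to 0.841 CPM in intact hypocotyls, and it passed in erf114,115 rootstocks (1.44 ± 0.53, adjusted p = 0.0275; lost without rootstock library 1 or any 1 of the 3 intact libraries, adjusted p up to 0.135) and in anac071,096 rootstocks (1.89 ± 0.55, adjusted p = 0.00696). In dof quadruple rootstocks XTH11 passed without rootstock library 3 (adjusted p = 0.0234).

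Set directly against Col-0 of the same tissue, few members differed in any mutant. The erf114,115 mutant had 1 lower member in scions and 1 lower in rootstocks, the same gene in both, XTH20 (0 higher each, by edgeR; 0.354% and 0.539% of tested loci higher and lower in scions, 0.0462% and 0.334% in rootstocks). XTH20 was 11.99-fold lower in erf114,115 scions than in Col-0 scions (log2 -3.58 ± 0.54, adjusted p = 0.000238) and 9.26-fold lower in erf114,115 rootstocks than in Col-0 rootstocks (-3.21 ± 0.55, adjusted p = 0.00192). Its libraries did not overlap between the genotypes in either tissue, as the values above show. Without erf114,115 scion library 1 the scion difference was -4.28 on the log2 scale, without rootstock library 3 the rootstock difference was -3.86 on the log2 scale, and with only the 2 compared groups in the fit the rootstock call did not pass (adjusted p = 0.254). In intact hypocotyls XTH20 differed by -1.57 ± 0.76 (adjusted p = 0.969). The response to grafting itself, scion minus intact in erf114,115 less that in Col-0, differed by -2.01 ± 0.96 (adjusted p = 0.9999), and that in rootstocks by -1.64 ± 0.97 (adjusted p = 0.935), neither past the threshold. XTH19, the close relative of XTH20, differed in erf114,115 by -0.73 ± 0.49 in scions (adjusted p = 0.635; 95% interval -1.72 to 0.26) and by -0.20 ± 0.48 in rootstocks (interval -1.18 to 0.79). XTH31 was lower in erf114,115 rootstocks by -1.40 ± 0.40 without passing (adjusted p = 0.159). It passed with the replicate number as a block (edgeR adjusted p = 0.0352) and by DESeq2 (adjusted p = 0.0258).

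**Figure D4:**
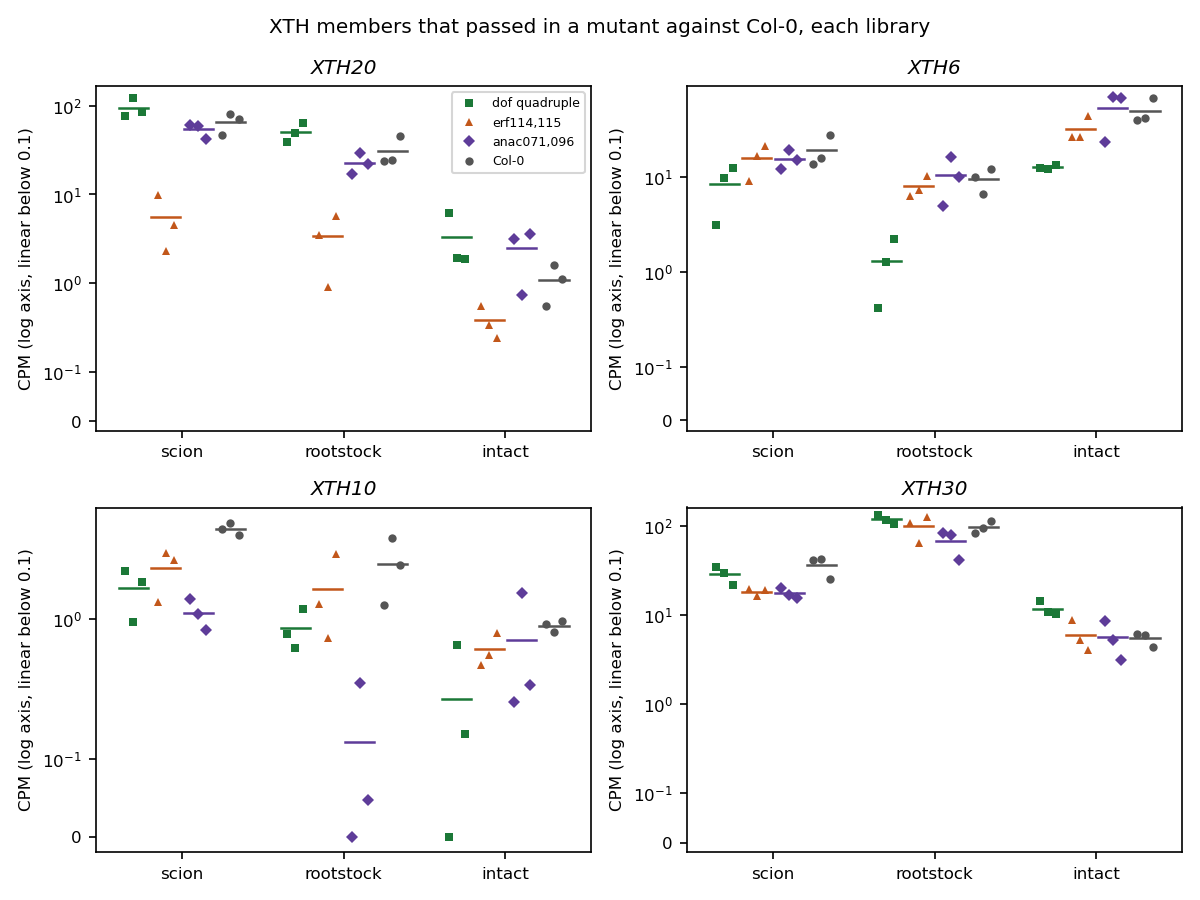
CPM of XTH20, XTH6, XTH10 and XTH30 in each library, by tissue, with the mutants to the left of Col-0, points for libraries and bars for group means. XTH20 lies at 2.31 to 9.87 CPM in erf114,115 scions, against 47.3 to 80.5 CPM in Col-0 scions, and XTH6 is lowest in dof quadruple.

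In dof quadruple intact hypocotyls 1 member was higher than in Col-0 intact hypocotyls and 1 lower (2.86% and 1.73% of tested loci). XTH6 was lower, by -1.96 ± 0.47 (adjusted p = 0.00847), and XTH30 higher, by 1.11 ± 0.31 (adjusted p = 0.0344); neither gene's libraries overlapped between the genotypes. The XTH6 call was lost without Col-0 intact library 3 (adjusted p = 0.0647) or dof quadruple intact library 2 (0.05105). The XTH30 call was lost without any 1 of the 3 Col-0 libraries or of dof quadruple libraries 1 and 2 (adjusted p up to 0.191). In rootstocks 0 members were higher and 1 lower (edgeR; 1.64% and 2.09% of tested loci), again XTH6, 7.18-fold lower in dof quadruple than in Col-0 (-2.84 ± 0.54, adjusted p = 0.00109). In dof quadruple scions no member passed in either direction by DESeq2, or by edgeR with 12 groups in the fit. Of all tested loci 0.395% passed as higher and 1.10% as lower. At an unadjusted p under 0.05 there were 3 members, a threshold at which the share of all loci was not computed. XTH6 in these scions differed by -1.18 ± 0.46 (adjusted p = 0.447). With only the compared groups in the fit XTH15 passed as lower (log2 -1.38, edgeR adjusted p = 9.24e-05). So did XTH22 (-0.86, 0.000911), XTH23 (-0.63, 0.0145) and XTH10 (-1.41, 0.0185). XTH7 passed as lower in dof quadruple intact hypocotyls without Col-0 intact library 2 (edgeR adjusted p = 0.0389) and by DESeq2 (adjusted p = 0.0482). XTH19 in dof quadruple intact hypocotyls differed from Col-0 by 2.39 ± 0.90 without passing by edgeR (adjusted p = 0.167). By DESeq2 XTH19 passed there as higher (log2 2.58, adjusted p = 0.0349).

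In anac071,096 rootstocks 0 members were higher and 1 lower than in Col-0 rootstocks (edgeR; 0.0667% and 0.796% of tested loci). That member was XTH10, with 0, 0.351 and 0.0477 CPM in anac071,096 rootstocks, against 1.25, 3.79 and 2.41 CPM in Col-0 rootstocks, from 8 counts against 162. The libraries did not overlap, and the log2 difference was -4.22 ± 0.86 (adjusted p = 0.00596). The call was lost without anac071,096 rootstock library 1 (adjusted p = 0.0801) or 3 (0.0745) and with only the 2 compared groups in the fit (0.152), and without library 2 XTH10 was 111-fold lower as a ratio of CPM (95% counting interval 19.6 to 4399, from 1 count). Within anac071,096, XTH10 in rootstocks was below its intact level by -2.39 ± 0.89 (adjusted p = 0.0328), a call lost without rootstock library 1 or 3 or intact library 2 (adjusted p up to 0.407); without rootstock library 2 it was 28.8-fold lower as a ratio of CPM (95% counting interval 4.902 to 1162, from 1 count). The genes described as targets of ANAC071 in cut stems did not pass in this mutant: XTH19 differed from Col-0 by 0.06 ± 0.48 in scions (95% interval -0.92 to 1.05) and 0.20 ± 0.48 in rootstocks (-0.78 to 1.19), and XTH20 by -0.29 ± 0.48 in scions (-1.27 to 0.70) and -0.45 ± 0.49 in rootstocks (-1.45 to 0.56). In the same rootstocks ANAC071 itself was lower by -2.60 ± 0.36 (adjusted p = 0.000101). XTH30 in anac071,096 scions was below Col-0 scions by -1.05 ± 0.30 without passing (adjusted p = 0.194).

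**Figure D5:**
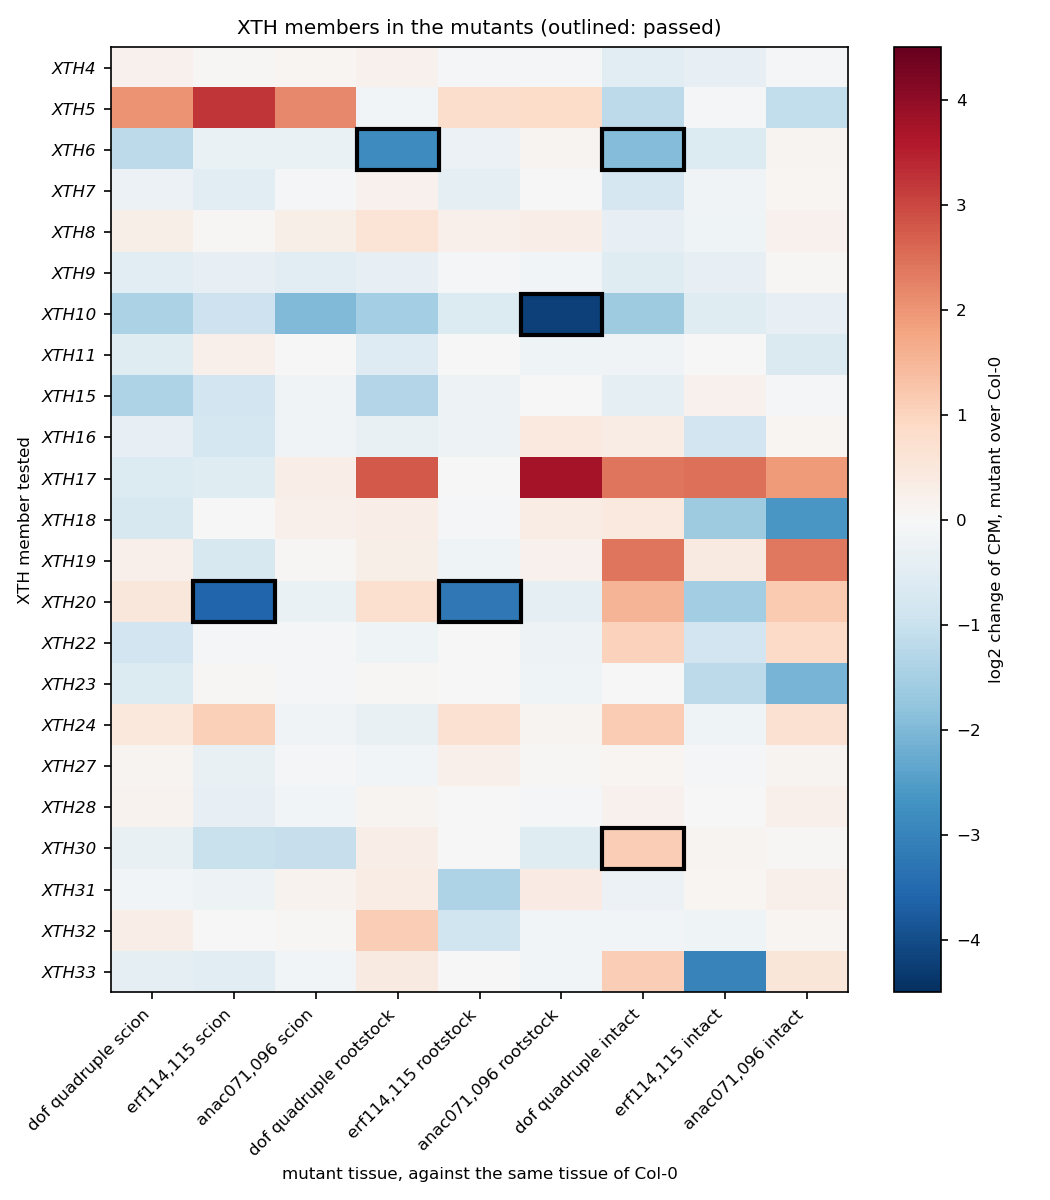
Heat map of the log2 difference between each mutant and Col-0 of the same tissue for the 23 tested members, with outlined cells past an adjusted p of 0.05. The outlined cells are XTH20 in erf114,115 scions and rootstocks, XTH6 in dof quadruple intact hypocotyls and rootstocks, XTH30 in dof quadruple intact hypocotyls and XTH10 in anac071,096 rootstocks.

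No member passed in the other mutant comparisons by edgeR with 12 groups in the fit. Shares of tested loci in this paragraph are of loci past the adjusted threshold. They are no background for members with an unadjusted p under 0.05, as that share was not computed over all loci. In erf114,115 intact hypocotyls 2 members had an unadjusted p under 0.05, and 0.0154% of tested loci were higher and 0.0154% lower than in Col-0. In anac071,096 intact hypocotyls 2 members had such a p (0.0257% of tested loci higher and 0.0154% lower), and in anac071,096 scions 3 (0.0257% higher and 0.359% lower). DESeq2 called 0 members in these 3 comparisons. In anac071,096 scions XTH10 (log2 -2.01, edgeR adjusted p = 0.00286) and XTH30 (-1.06, 0.0138) passed as lower with only the compared groups in the fit. The change from intact tissue to scion or rootstock in a mutant was also compared with the same change in Col-0, and no member passed in any of the 6 such tests. For dof quadruple, 4 members had an unadjusted p under 0.05 in scions (0.0667% of tested loci passed as higher and 0.878% as lower) and 2 in rootstocks (0.164% and 0.734%). For erf114,115 the numbers were 4 in scions (0.0205% and 0.0308%) and 2 in rootstocks (0.0154% and 0.0308%), and for anac071,096 4 in scions (0.00513% and 0.0411%) and 4 in rootstocks (0.00513% and 0.200%). DESeq2 called 0 members in 5 of the 6 and 1, XTH10, in anac071,096 rootstocks (adjusted p = 0.0267). The smallest adjusted p by edgeR was that of XTH30 in dof quadruple scions, whose rise over intact tissue was smaller than in Col-0 by log2 -1.44 ± 0.43 (adjusted p = 0.137). Of the 17 other xyloglucan genes, none passed in any of the 9 mutant comparisons or the 6 comparisons of responses by edgeR or DESeq2, with at most 3 at an unadjusted p under 0.05, in dof quadruple rootstocks.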

How the data were processed

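The authors deposited 1 table of whole-number counts per locus for 36 libraries. Per the submitters' processing notes, reads were handled with fastp, HISAT2, HTSeq and DESeq2 against TAIR10; versions, the annotation release and the strand setting were not given in the sources used here. All 36 columns matched a sample description, no column was left out, and no row lacked a locus. Counts as deposited were fitted with edgeR 4.0.16 (R 4.3.3; robust quasi-likelihood fit of 12 groups, 24 residual degrees of freedom, TMM factors of 0.784 to 1.31) on the 19476 loci that passed filterByExpr with a minimum count of 10. Each SE is the size of the log2 change divided by the square root of the F statistic, and 95% intervals for log2 changes use it with the fit's degrees of freedom. Tests were two-sided, Benjamini-Hochberg adjustment ran over all tested loci within each of 24 comparisons, and an adjusted p under 0.05 passed. A group at 0 was given the limit that 3 counts allow over the group, and intervals and limits cover counting error only, since the reads carry no molecular identifiers. CPM are TMM-scaled, and CPM per kb divides by merged exon length in RefSeq TAIR10.1, whose coordinates and sequences are printed as they stand. The members and lists were chosen with earlier results of these data known. Library values are given for members that passed with a change of 2-fold or more and whose mean reached 10 CPM on either side of the comparison; up to 4 other xyloglucan genes with the smallest adjusted p were named per Col-0 comparison. The fit was run on simulated counts that had the same spread for every locus and changes in a single group. Those settings are simpler than the data. The simulation therefore does not show how the tests behave where many loci change or a group holds few counts. No libraries of a group agreed within sampling noise (chi-square per degree of freedom at least 15.2). Alternatives were DESeq2 1.42.0, other scalings, no filter, fits of the compared groups only, a replicate block, and leaving out each library. Same-numbered libraries deviated together (every correlation over 0.1) in 7 of 18 comparisons: rootstock with intact in dof quadruple, scion and rootstock with intact in erf114,115, and dof quadruple and erf114,115 with Col-0 in intact hypocotyls and rootstocks. Nothing in the labels says what the numbers mark.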

Additional observations from a re-analysis of the deposited data

How the results depend on the processing

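No result that passed in the fit of 12 groups or in an alternative had the opposite direction in the other. Changes of sign in results that passed in neither were not counted. The total number of members called in each of the 9 comparisons between tissues stayed within 1.5 times the value given. The number of lower members did not in dof quadruple scions (5 with only the compared groups in the fit, 1 in the fit of 12 groups). Nor did it in erf114,115 scions (5 with only the compared groups in the fit and with the replicate block, against 3). In Col-0 the number of lower members in scions, and that of higher members between the sides, also moved further when single libraries were left out, as given above. The share of all loci that passed was computed only for the edgeR fit of 12 groups. Counts of members under the alternatives, here and above, therefore have no background, and whether their shifts are particular to the family is not known. Counts of members that differed from Col-0 were small and moved. DESeq2 called 4 members in dof quadruple intact hypocotyls (2 by edgeR), 3 in erf114,115 scions (1), 2 in erf114,115 rootstocks (1) and 1 in the rootstock response of anac071,096 (0). With only the compared groups in the fit the numbers were 4 in dof quadruple scions (0 in the fit of 12 groups), 2 in anac071,096 scions (0), 0 in erf114,115 rootstocks (1) and 0 in anac071,096 rootstocks (1). The replicate block gave 2 in erf114,115 scions (XTH30 added, adjusted p = 0.0476), 2 in erf114,115 rootstocks and 1 in the scion response of dof quadruple (XTH30, adjusted p = 0.0408); it changed no other total by over 1.5 times, and in Col-0 it added XTH31 in scions (adjusted p = 0.0477) and XTH6 between the sides (adjusted p = 0.0243). Leaving out 1 library gave 0 to 2 members in dof quadruple intact hypocotyls, 1 to 2 in dof quadruple rootstocks (the added one being XTH25, which was too low to be tested with all libraries) and 0 to 1 in anac071,096 rootstocks. Over single members and comparisons, DESeq2 kept 537 verdicts, gained 10 and lost 1, and leaving out a library kept 4066, gained 16 and lost 58. The cause of these changes was not tested. Upper-quartile scaling also moved the median of all loci by -0.16 log2 in erf114,115 rootstocks and -0.15 in anac071,096 rootstocks. With 3 libraries a group, low members such as XTH5, XTH10, XTH11 and XTH17 rest on few counts, and a difference that did not pass may still exist.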
